A study of Homo sapiens with 12 samples.

Results

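In all, 8 genes of the phosphoinositide 3-kinase (PI3K), AKT, mTOR and FoxO pathway were followed in sorafenib-resistant and parental liver cancer cells. They are PIK3CA, PIK3R1, AKT1, AKT2, MTOR, RICTOR, FOXO1 and FOXO3. They were taken by gene symbol from the 12 deposited expression tables, each symbol matched exactly 1 Ensembl gene, and they are 8 of 27249 Ensembl genes among 98711 rows. RNA-seq had been performed on Huh7 and HepG2 cells, human liver cancer lines labelled as wild type, with 3 samples in each of 4 groups. Resistant cells of both lines had received sorafenib, a kinase inhibitor, from a first dose stated as 10 μmol, with rising doses over 8 months, whereas the cells labelled sensitive, called parental here, had no treatment. The labels do not say whether a resistant line is a pool or a clone, or whether the 3 samples of a group came from separate cultures, so a p-value measures only the spread between these samples.

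PI3K is a lipid kinase made of a catalytic and a regulatory subunit, and it is switched on by receptor tyrosine kinases such as the insulin receptor. The lipid that it makes brings AKT kinases to the membrane, where PDPK1 and mTOR complex 2, of which RICTOR is a defining subunit, phosphorylate them. Active AKT stimulates mTOR complex 1, a promoter of protein synthesis, and phosphorylates FOXO1 and FOXO3, transcription factors that are then held in the cytoplasm. In liver cells this pathway carries the insulin signal, in which FOXO1 drives gluconeogenic genes in the fasted state. Transcript levels are reported here, which do not show phosphorylation or the location of a protein.

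The deposited values behave as FPKM, that is, reads scaled by the exon length of a gene and by sequencing depth. The values of all 8 genes, multiplied by the joint length of their exons in GENCODE release 29, fell on whole numbers of reads, and 12290128 to 19285959 reads lay behind a sample. Every resistant sample had more reads than every parental one of its line. They had 18972395 to 19285959 against 16158299 to 17944448 in Huh7, and 16935538 to 18281776 against 12290128 to 15728849 in HepG2. The part of depth in the results below was not tested. Each of the 8 genes rested on 317 to 7380 reads in a sample, so that counting error alone was at most 5.62% of a value. Of 10 hepatocyte markers, all 10 were at 1 FPKM or more in every sample. Their summed level was lower in resistant cells of both lines, at 5223 to 5356 against 7864 to 9725 FPKM in Huh7 and 3914 to 4200 against 4971 to 6092 FPKM in HepG2, and its part in the results below was not tested. Single markers did not all follow the sum. In Huh7, 3 were higher and 3 lower at an adjusted p under 0.05 (limma, described below), with a median log2 fold change of 0.18. In HepG2, 0 were higher and 3 lower, with a median of 0.01. AFP alone measured 2115 to 2415 FPKM in resistant and 4623 to 6306 FPKM in parental Huh7 cells. Of 10 blood cell, endothelial and fibroblast markers, 2 to 4 reached 1 FPKM, with a summed level of 7.84 to 9.57 FPKM in resistant and 5.13 to 6.81 FPKM in parental Huh7 cells, and 5.82 to 7.68 against 8.35 to 10.8 FPKM in HepG2 cells. NONCODE genes, mostly long non-coding RNAs, took 20.4% to 25.5% of all FPKM in parental Huh7 cells against 12.3% to 14.5% in resistant ones, and 15.1% to 16.2% against 16.6% to 20.7% in HepG2 cells.

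The FoxO factors bind a forkhead motif with the core letters TGTTTAC, and the promoters of the 8 genes and of listed FoxO target genes were searched for it on both strands. RefSeq promoters on GRCh38.p14, from 250 bases before to 50 bases after the gene start, were found for 8 of the 8 genes and for 16 of 24 FoxO target genes, with the listing nearest to the GENCODE gene start taken where several exist. TGTTTAC or its reverse complement GTAAACA was present in 1202 of 35116 promoters of this length (3.42%), in 1 of the 8 genes and in 2 of the 16 targets. The 3 promoters that hold it are shown because the levels of these genes are given below, with the motif in capitals and each sequence in the direction of the gene. Counted from the start of the RefSeq listing, the first base of the motif lies 149 bases before the gene start in PIK3CA (chr3:179148107-179148406, plus strand), 124 bases before it in TXNIP (chr1:145996530-145996829, minus strand) and 223 bases before it in BCL2L11 (chr2:111120664-111120963, plus strand).
PIK3CA: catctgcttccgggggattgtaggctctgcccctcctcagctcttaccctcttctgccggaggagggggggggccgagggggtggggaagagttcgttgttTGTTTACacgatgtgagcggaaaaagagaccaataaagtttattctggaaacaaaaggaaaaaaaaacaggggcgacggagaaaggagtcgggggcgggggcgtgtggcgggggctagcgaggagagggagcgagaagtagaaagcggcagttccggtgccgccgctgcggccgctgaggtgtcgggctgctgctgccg
TXNIP: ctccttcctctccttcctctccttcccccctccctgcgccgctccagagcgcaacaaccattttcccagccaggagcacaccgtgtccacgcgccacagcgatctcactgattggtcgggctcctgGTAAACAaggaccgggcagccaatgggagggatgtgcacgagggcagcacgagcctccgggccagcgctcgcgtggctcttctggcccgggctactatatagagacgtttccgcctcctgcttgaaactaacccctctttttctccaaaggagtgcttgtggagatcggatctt
BCL2L11: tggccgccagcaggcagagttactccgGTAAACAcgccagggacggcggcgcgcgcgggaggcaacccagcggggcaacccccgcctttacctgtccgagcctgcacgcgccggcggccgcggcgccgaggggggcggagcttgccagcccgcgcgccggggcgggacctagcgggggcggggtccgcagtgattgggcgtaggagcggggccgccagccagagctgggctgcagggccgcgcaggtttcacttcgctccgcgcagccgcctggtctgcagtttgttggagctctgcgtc
The GENCODE start of PIK3CA lies farther upstream than the RefSeq one, and counted from it the motif is 94 bases inside the gene. A match is a description of letters and says nothing about binding. The promoters of FOXO1, FOXO3, RICTOR, MTOR, AKT1, AKT2 and PIK3R1 held neither form in this window.

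Resistant and parental cells were compared within each line by fitting log2(FPKM + 1) with limma, and its moderated, two-sided p-values were adjusted after Benjamini and Hochberg over every gene that reached 1 FPKM in 3 or more of the 6 samples of the line. A gene is called here at an adjusted p-value under 0.05. In resistant Huh7 cells PIK3CA, PIK3R1, RICTOR, FOXO1 and FOXO3 fell, AKT2 rose, and AKT1 and MTOR were not called. In resistant HepG2 cells FOXO1 and FOXO3 fell, and the other 6 genes were not called. This gives 6 of 8 in Huh7, where 70.1% of 12554 tested genes were called, and 2 of 8 in HepG2, where 20% of 11762 were called, so that the share is near its background in both lines. By direction, 5 of the 8 were lower in Huh7 beside 37.4% of all genes and 1 was higher beside 32.7%, and 2 were lower in HepG2 beside 8.43% of all genes, where 11.6% were higher. A call with a log2 fold change beyond 1 was made for 3 of the 8 in Huh7 (22.6% of all genes) and for 1 in HepG2 (6.27%). The samples of the 2 groups did not overlap for 7 of the 8 genes in Huh7 (74.5% of all genes) and for 4 in HepG2 (40.4%). The median log2 fold change of the 8 genes was -0.43 in Huh7 and -0.13 in HepG2, beside -0.04 and 0.12 over all genes tested. In HepG2, 58.0% of all called genes were higher, and 43.5% when libraries were rescaled by their median ratio. Without HepG2 resistant replicate 1, 5 of the 8 were called in HepG2, in a fit that called 19.5% of all genes.

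**Figure D1:**
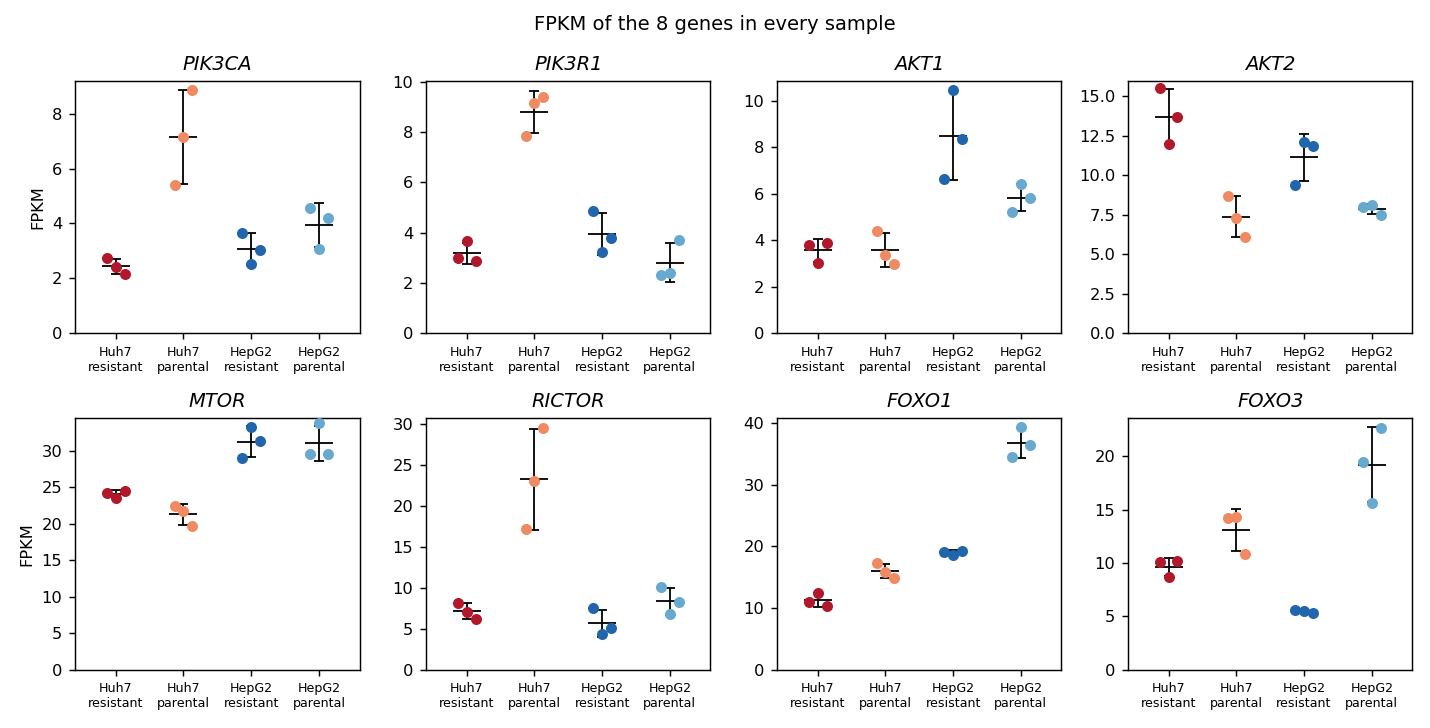
FPKM (vertical axis, from 0) of the 8 genes in each of the 12 samples, with points for samples and bars for the mean and SD of a group (n = 3). FOXO1 and FOXO3 lie lower in all resistant than in all parental samples of both lines, while the levels of RICTOR, PIK3CA and PIK3R1 stand apart mainly in parental Huh7 cells.

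In Huh7 the changes followed the GC content of the genes. Across 12545 genes, which are not independent replicates, Spearman's rho between log2 fold change and GC content was 0.63 in Huh7, and 0.03 across 11756 genes in HepG2. The 3 genes with the lowest GC content of the 8, PIK3CA (36.4%), RICTOR (37.7%) and PIK3R1 (40.1%), were those that fell most in Huh7, and AKT2 (58.6%), which rose, and AKT1 (60.3%) have the highest. Each comparison was therefore also fitted after the trend of each library on GC content had been removed, a fit that calls 63.6% of genes in Huh7 and 34.4% in HepG2. It called 6 of the 8 genes in each line. Values with the trend removed are given below for the 8 genes and the list counts. For other pathway genes they are given only beside a change named below, where its call changed or its called value moved by over 1.5 times. Equal list counts can therefore hold different genes. Whether the trend arose in the libraries or in the cells was not tested.

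**Figure D2:**
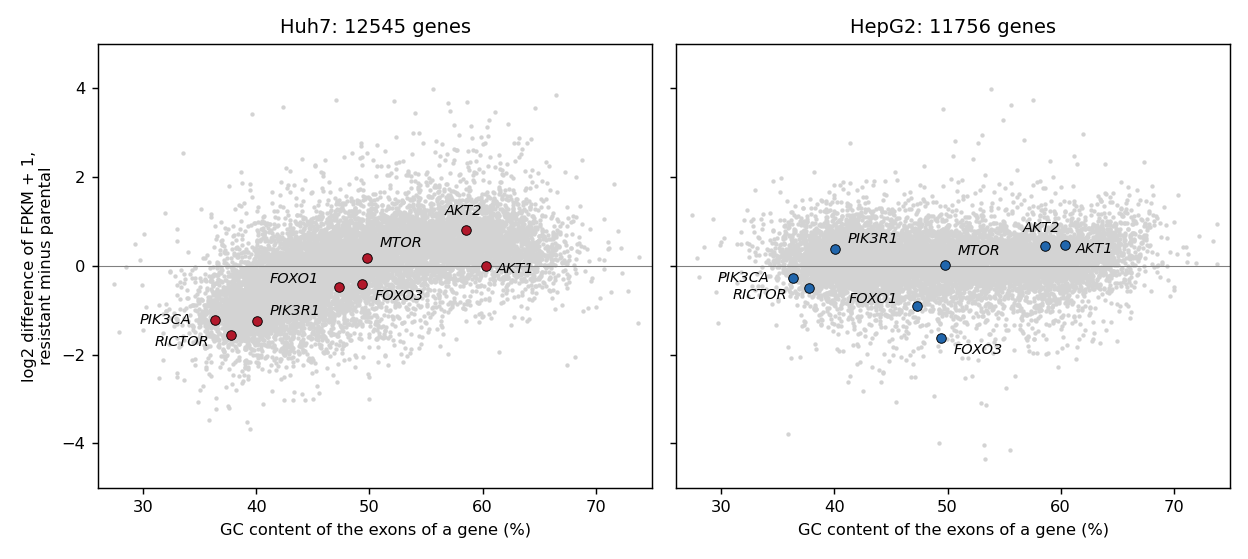
Log2 difference of FPKM + 1 between resistant and parental cells (vertical axis) against the GC content of the exons in %, pooled over the transcripts of a gene (horizontal axis), with all tested genes in grey and the 8 genes coloured. The cloud rises with GC content in Huh7 (rho 0.63) and is level in HepG2 (rho 0.03), where FOXO3 and FOXO1 lie toward its lower edge.

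PIK3CA encodes p110alpha, the catalytic subunit of PI3K that responds to receptor tyrosine kinases, on chromosome 3 (179148114-179240093, plus strand, GRCh38). It measured 2.73, 2.40 and 2.16 FPKM in resistant Huh7 cells and 5.42, 7.15 and 8.87 FPKM in parental ones, so that every resistant sample was below every parental one. The level fell with a log2 fold change of -1.23 (95% confidence interval -1.60 to -0.85, adjusted p = 0.00027, limma), but with the GC trend removed the value was -0.21 and the call was lost (adjusted p = 0.0654, limma). In HepG2 the values were 3.65, 2.51 and 3.05 FPKM in resistant and 4.56, 3.06 and 4.21 FPKM in parental cells. These ranges overlapped (log2 fold change -0.28, interval -0.69 to 0.13, adjusted p = 0.294, limma), while with the trend removed the value was -0.41 and was called (adjusted p = 0.0169, limma). PIK3CA shares 3403 exon bases with KCNMB3 on the other strand, and a partial near-identical copy of the gene lies elsewhere in the genome. Without knowledge of how strand and shared reads were treated, its level is uncertain.

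PIK3R1 encodes p85alpha, the regulatory subunit that stabilises and restrains p110, on chromosome 5 (68215720-68301821, plus strand). In Huh7 it measured 2.99, 3.66 and 2.86 FPKM in resistant and 7.84, 9.17 and 9.40 FPKM in parental cells, again without overlap. The log2 fold change was -1.23 (interval -1.51 to -0.96, adjusted p = 7.68e-05, limma) and -0.49 with the GC trend removed (adjusted p = 0.000512, limma), so that the size shrank and the call remained. In HepG2 the resistant samples had 4.85, 3.22 and 3.78 FPKM and the parental samples 2.29, 2.40 and 3.68 FPKM, with overlap and no call (log2 fold change 0.39, interval -0.05 to 0.84, adjusted p = 0.185, limma), and 0.27 with the trend removed (adjusted p = 0.124, limma). The change differed between the lines: the interaction, the Huh7 change minus the HepG2 change, was -1.63 (adjusted p = 0.000177, limma) and -0.79 with the trend removed (adjusted p = 0.00059, limma). This is 1 of 5 genes of the 8 with a called interaction, beside 56.3% of 13800 genes tested in all 12 samples. The median interaction of all genes was -0.15, and -0.03 when libraries were rescaled by their median ratio, a scaling under which AKT2 and MTOR were called beside these 5.

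AKT1 and AKT2 encode the serine and threonine kinases at the centre of the pathway, AKT2 being the form tied to insulin-stimulated glucose uptake. AKT2 (chromosome 19, 40230317-40285536, minus strand) measured 15.5, 11.97 and 13.7 FPKM in resistant and 8.72, 7.32 and 6.09 FPKM in parental Huh7 cells. It rose by a log2 fold change of 0.82 (interval 0.48 to 1.15, adjusted p = 0.00119, limma), which was 0.26 with the GC trend removed (adjusted p = 0.0147, limma). In HepG2 the resistant samples, at 9.39, 12.1 and 11.9 FPKM, all lay above the parental ones, at 7.99, 8.11 and 7.51 FPKM, but the difference was not called (log2 fold change 0.44, interval 0.11 to 0.77, adjusted p = 0.0626, limma). It was called with the trend removed (0.33, adjusted p = 0.0241, limma) and without HepG2 resistant replicate 1 (0.55, adjusted p = 0.0339, limma), but in no other fit that left out a sample. The same rise was also called with all 12 samples in 1 fit (adjusted p = 0.0308, limma), a block on replicate number (adjusted p = 0.0472, limma) and limma-voom (0.49, adjusted p = 0.0437).

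AKT1 (chromosome 14, 104769349-104795751, minus strand) measured 3.79, 3.00 and 3.89 FPKM in resistant and 4.39, 3.37 and 2.96 FPKM in parental Huh7 cells. The ranges overlapped and the log2 fold change was 0.0017 (interval -0.34 to 0.34, adjusted p = 0.992, limma), yet it was -0.54 with the GC trend removed (adjusted p = 0.000511, limma). In HepG2 the resistant samples had 6.64, 10.5 and 8.36 FPKM and the parental samples 5.23, 6.40 and 5.83 FPKM. Every resistant sample was higher, without a call (0.46, interval 0.06 to 0.87, adjusted p = 0.0997, limma), and the difference was called without HepG2 resistant replicate 1 (0.61, adjusted p = 0.0395, limma) and with the trend removed (0.30, adjusted p = 0.0282, limma). It was also called with all 12 samples in 1 fit (adjusted p = 0.0489, limma) and with a block on replicate number (adjusted p = 0.0389, limma). The interaction for AKT1 was -0.46 (adjusted p = 0.114, limma), -0.80 with the trend removed (adjusted p = 6.75e-05, limma) and -0.60 without HepG2 resistant replicate 1 (adjusted p = 0.037, limma). For AKT2 the interaction was 0.37 (adjusted p = 0.128, limma), and it was called when libraries were rescaled by their median ratio (0.54, adjusted p = 0.034, limma), while with the GC trend removed it was -0.014 (adjusted p = 0.918, limma).

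The balance of the AKT forms was read from their ratio within a sample, in which depth cancels. In Huh7 the ratio of AKT2 to AKT1 was 4.09, 3.996 and 3.52 in resistant and 1.98, 2.17 and 2.06 in parental samples. The groups did not overlap, with p = 0.1 in an exact two-sided permutation test, the smallest that 3 samples against 3 can give. In HepG2 the ratio was 1.41, 1.16 and 1.42 in resistant and 1.53, 1.27 and 1.29 in parental samples, and the groups overlapped (p = 1, exact permutation test). AKT1 and AKT2 have close GC contents, and the Huh7 difference of 0.90 in log2 ratio was 0.89 with the GC trend removed.

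MTOR encodes the kinase of both mTOR complexes (chromosome 1, 11106535-11262507, minus strand) and varied least of the 8 genes over the 12 samples. It measured 24.3, 23.6 and 24.5 FPKM in resistant and 22.5, 21.8 and 19.7 FPKM in parental Huh7 cells. Resistant samples lay above parental ones without a call (log2 fold change 0.17, interval -0.05 to 0.40, adjusted p = 0.143, limma). In HepG2, at 29.04, 33.3 and 31.4 against 29.6, 33.8 and 29.6 FPKM, the groups overlapped (0.01, interval -0.29 to 0.32, adjusted p = 0.96, limma). Removing the GC trend gave values of -0.0097 in Huh7 and -0.04 in HepG2, without a call, and an interaction of 0.08 in place of 0.16. Both intervals of the deposited values leave out a change of 2-fold in either direction.

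RICTOR, the scaffold of mTOR complex 2 (chromosome 5, 38937919-39074408, minus strand), had the largest fall of the 8 genes in Huh7. It measured 8.14, 7.09 and 6.14 FPKM in resistant and 17.1, 23.0 and 29.5 FPKM in parental cells, so that the parental samples also differed widely among themselves. The mean was 3.26-fold lower in resistant cells, and the log2 fold change was -1.55 (interval -1.98 to -1.12, adjusted p = 0.000177, limma) or -0.62 with the GC trend removed (adjusted p = 0.00325, limma). In HepG2 the resistant samples had 7.53, 4.41 and 5.08 FPKM and the parental samples 10.0, 6.79 and 8.24 FPKM, with overlap and no call (-0.50, interval -0.98 to -0.02, adjusted p = 0.124, limma). With the trend removed the HepG2 value was -0.63 and was called (adjusted p = 0.0068, limma), as it was without HepG2 resistant replicate 1 (-0.69, adjusted p = 0.0369, limma). A block on replicate number also gave a call (-0.50, adjusted p = 0.027, limma). The interaction of -1.05 (adjusted p = 0.0128, limma) was -0.02 with the trend removed (adjusted p = 0.921, limma), and that of PIK3CA, -0.95 (adjusted p = 0.00708, limma), was 0.16 (adjusted p = 0.298, limma). RICTOR shares 229 of its 13550 exon bases with OSMR on the other strand, which had a mean of 11.6 FPKM in resistant and 26.2 FPKM in parental Huh7 cells, and 31.1 against 68.7 FPKM in HepG2 cells. The part of OSMR reads in the RICTOR value was not tested.

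**Figure D3:**
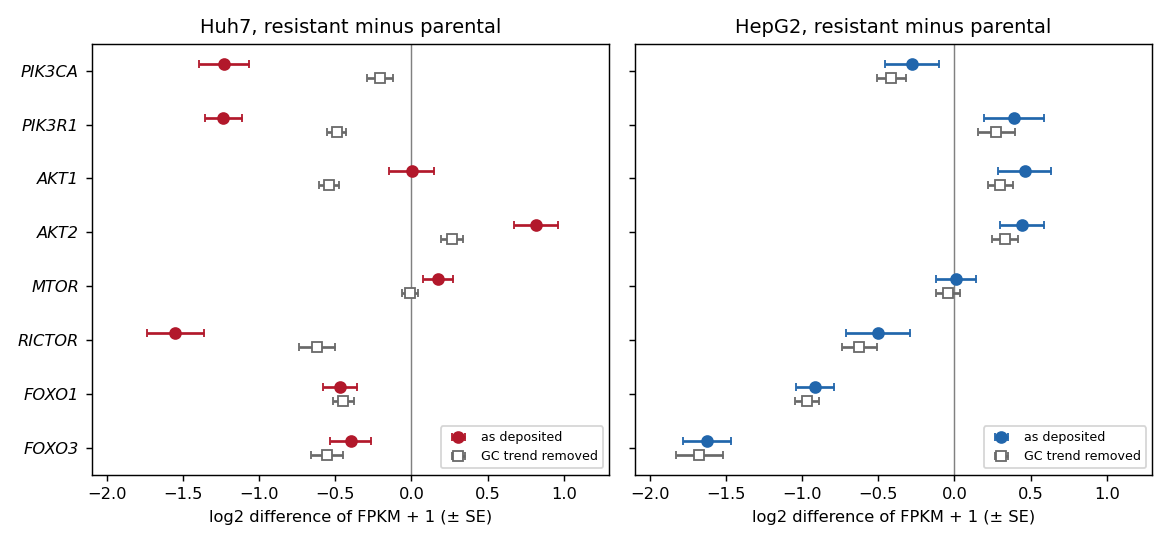
Log2 difference of FPKM + 1, resistant minus parental (horizontal axis, bars ± SE), for the 8 genes in Huh7 and HepG2, from the deposited values (filled circles) and with the GC trend of each library removed (open squares). In Huh7 PIK3CA moves from -1.23 to -0.21 and RICTOR from -1.55 to -0.62, whereas FOXO1 and FOXO3 lie below 0 under both in each line.

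RICTOR defines mTOR complex 2 and RPTOR defines complex 1, so their ratio was followed as well. RPTOR rose in Huh7, from a mean of 8.92 ± 1.52 to 12.9 ± 1.17 FPKM (SD, n = 3, log2 fold change 0.49, adjusted p = 0.0107, limma), and was -0.06 with the GC trend removed (adjusted p = 0.393, limma). The ratio of RICTOR to RPTOR was 0.619, 0.613 and 0.443 in resistant Huh7 samples against 1.61, 2.76 and 3.80 in parental ones. In HepG2 it was 0.526, 0.197 and 0.254 against 0.845, 0.408 and 0.464, with overlap. Permuted within lines over all 12 samples, the mean log2 difference was -1.54 (p = 0.015, exact permutation test, 0.0375 adjusted over 5 ratios) and -0.81 with the trend removed (p = 0.005, exact permutation test, the smallest that this test can give). The ratio of RICTOR to MTOR differed over both lines by -1.22 (p = 0.01, exact permutation test, 0.0375 adjusted over 5 ratios), and by -0.70 with the trend removed (p = 0.005, exact permutation test). By line it differed by -1.86 in Huh7 and by -0.59 in HepG2, where the groups overlapped (p = 0.2, exact permutation test). With the trend removed these were -0.75 and -0.66.

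**Figure D4:**
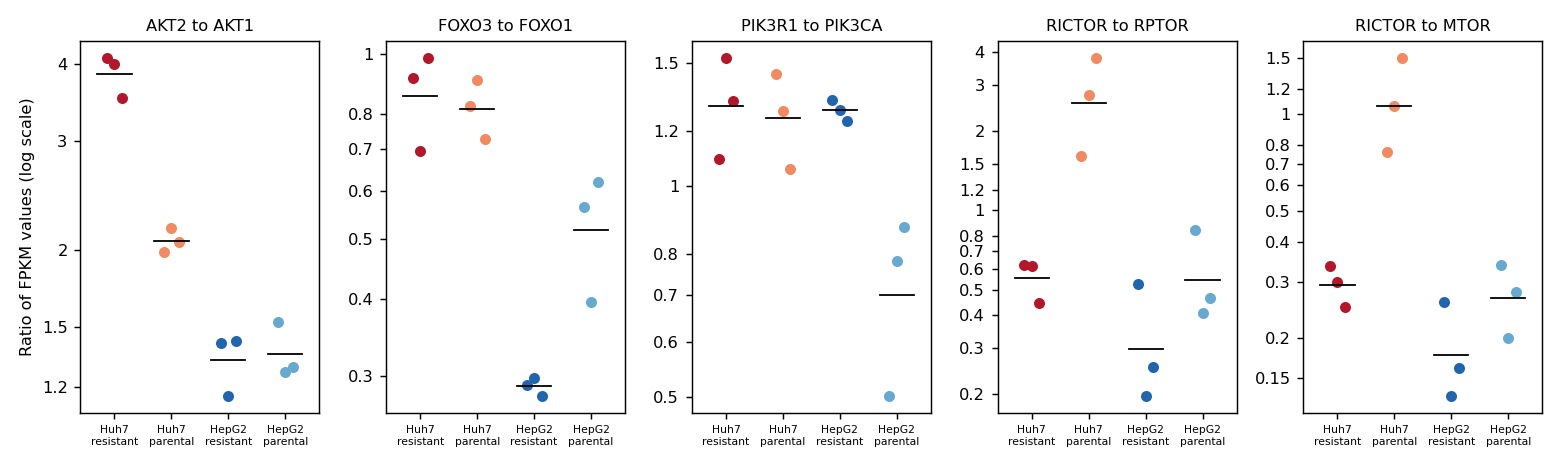
Ratios of the FPKM values of gene pairs within each sample on a log scale, with points for samples and bars for the geometric mean of a group (n = 3). The AKT2 to AKT1 ratio stands apart in resistant Huh7 samples at 3.52 to 4.09, FOXO3 to FOXO1 in resistant HepG2 samples at 0.279 to 0.298, and the RICTOR ratios are highest in parental Huh7 samples.

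FOXO1 (chromosome 13, 40469953-40666597, minus strand) fell in both lines. In Huh7 it measured 11.04, 12.5 and 10.4 FPKM in resistant and 17.3, 15.8 and 14.9 FPKM in parental cells, without overlap. The log2 fold change was -0.47 (interval -0.72 to -0.21, adjusted p = 0.00519, limma) and -0.45 with the GC trend removed (adjusted p = 0.00118, limma). In HepG2 the resistant samples had 19.1, 18.6 and 19.2 FPKM, close to each other, and the parental samples 34.5, 39.4 and 36.5 FPKM. There the mean was 1.93-fold lower (log2 fold change -0.91, interval -1.20 to -0.63, adjusted p = 0.00253, limma, and -0.97 with the trend removed), and the fall was larger than in Huh7 (interaction 0.45, adjusted p = 0.017, limma, and 0.56 with the trend removed, adjusted p = 0.000621, limma).

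FOXO3 (chromosome 6, 108559835-108684774, plus strand), which shares targets with FOXO1, had the largest fall of the 8 genes in HepG2. The resistant HepG2 samples had 5.56, 5.55 and 5.36 FPKM and the parental samples 19.4, 15.6 and 22.6 FPKM, so that the mean was 3.50-fold lower. The log2 fold change was -1.62 (interval -1.99 to -1.26, adjusted p = 0.000709, limma) and -1.68 with the GC trend removed (adjusted p = 0.000538, limma). In Huh7 the values were 10.1, 8.70 and 10.2 FPKM in resistant and 14.2, 14.3 and 10.8 FPKM in parental cells, a smaller fall of -0.40 (interval -0.70 to -0.10, adjusted p = 0.0246, limma). This call was lost without Huh7 resistant replicate 2 (-0.33, adjusted p = 0.0728, limma), without Huh7 parental replicate 1 (-0.34, adjusted p = 0.0655, limma) and without Huh7 parental replicate 2 (-0.34, adjusted p = 0.0959, limma). With the trend removed the Huh7 value was -0.55 (adjusted p = 0.00344, limma). The interaction was 1.23 (adjusted p = 0.000452, limma) and 1.17 with the trend removed (adjusted p = 0.000495, limma). A near-identical copy of FOXO3 exists in the genome, so that its level is uncertain where reads could be split between them.

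The FOXO3 to FOXO1 ratio in HepG2 was 0.290, 0.298 and 0.279 in resistant and 0.564, 0.396 and 0.620 in parental samples, without overlap (p = 0.1, exact permutation test, the smallest for 3 against 3). In Huh7 it was 0.914, 0.696 and 0.984 against 0.822, 0.906 and 0.728, and the groups overlapped (p = 0.7, exact permutation test). The PIK3R1 to PIK3CA ratio showed the same kind of split, at 1.33, 1.29 and 1.24 in resistant against 0.502, 0.783 and 0.875 in parental HepG2 samples (p = 0.1, exact permutation test), with overlap in Huh7 at 1.09 to 1.53 against 1.06 to 1.45. Over both lines this ratio differed by 0.46 on the log2 scale (p = 0.035, exact permutation test), which did not pass adjustment over the 5 ratios (0.0583), and the FOXO3 to FOXO1 ratio by -0.39 (p = 0.1, exact permutation test). After removal of the GC trend these were 0.34 (p = 0.165, exact permutation test) and -0.47 (p = 0.03, exact permutation test).

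The lines also differed before any selection. Between the parental groups, 7 of the 8 genes were called, beside 67.2% of 13800 genes, all but AKT2 (log2 difference Huh7 minus HepG2 -0.09, interval -0.40 to 0.21, adjusted p = 0.571, limma). PIK3R1 (1.39), RICTOR (1.35) and PIK3CA (0.71) were higher in parental Huh7 cells, and FOXO1 (-1.15), AKT1 (-0.58), MTOR (-0.52) and FOXO3 (-0.51) were higher in parental HepG2 cells. With the GC trend removed PIK3CA was no longer called (-0.063, adjusted p = 0.546, limma), PIK3R1 was 0.83, RICTOR 0.65, FOXO1 -1.28, AKT1 -0.41, MTOR -0.54 and FOXO3 -0.55, each still called, and AKT2 was 0.11. Between the resistant groups 4 of 8 were called, beside 64.1% of genes: AKT1 (-1.04), FOXO1 (-0.71) and MTOR (-0.36) were higher in HepG2, and FOXO3 (0.71) was higher in Huh7. The order of FOXO3 between the lines was thus reversed, since its mean was 13.1 ± 1.98 FPKM in Huh7 and 19.2 ± 3.53 FPKM in HepG2 among parental samples, and 9.66 ± 0.833 and 5.49 ± 0.113 FPKM among resistant ones (SD, n = 3). PIK3CA, PIK3R1 and RICTOR were not called between the resistant groups, with intervals of -0.62 to 0.15, -0.60 to 0.12 and -0.17 to 0.78. Once the GC trend was removed, RICTOR was called there (0.62, adjusted p = 0.001, limma), PIK3CA (0.099) and PIK3R1 (0.035) were not, and AKT1 (-1.21), FOXO1 (-0.72), MTOR (-0.46) and FOXO3 (0.62) remained called.

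Per joint exon length, FOXO1 (36.8 ± 2.48 FPKM) and MTOR (31.0 ± 2.45 FPKM) led in parental HepG2 cells, RICTOR (23.2 ± 6.17 FPKM) and MTOR (21.3 ± 1.43 FPKM) in parental Huh7 cells, and MTOR in both resistant groups (24.1 ± 0.487 and 31.2 ± 2.14 FPKM, SD, n = 3). RICTOR and MTOR in parental Huh7 cells did not differ beyond their spread. By this scale PIK3CA was lowest in both resistant groups, AKT1 in parental Huh7 cells and PIK3R1 in parental HepG2 cells. The order depends on the length used, since the joint exon length of AKT1 and AKT2 is 2.85 and 2.84 times that of their principal transcript, against 1.04 for PIK3CA. Scaled to principal transcripts, AKT2 led in resistant Huh7 cells at 38.9 ± 5.01 and MTOR followed at 33.7 ± 0.681, MTOR (43.3 ± 3.42) stood above FOXO1 (39.96 ± 2.69) in parental HepG2 cells, and PIK3CA was lowest in all 4 groups (SD, n = 3).

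For each of the 8 genes, the 2 genes closest in pattern over the 12 samples were sought among 13800, by the root mean square difference of log2(FPKM + 1) centred on each gene's mean. The closest to PIK3CA were MIB1 (0.079) and MKLN1 (0.098), to PIK3R1 KCTD3 (0.079) and ESCO2 (0.087), and to RICTOR LYSMD3 (0.13) and SCYL2 (0.14). For AKT1 they were SGSH (0.087) and FAM20C (0.089), for AKT2 MEN1 (0.093) and SLC22A18AS (0.10), and for MTOR SNX29 (0.081) and TAF8 (0.081). GATAD1 (0.14) and the insulin receptor gene INSR (0.14) were closest to FOXO1, and SNX9 (0.17) and SLC7A2 (0.21) to FOXO3. These values compare with a spread of 0.24 (MTOR) to 0.75 (RICTOR) for the genes themselves, and depth and GC content are shared by all points.

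Genes that act beside the 8 in the pathway were counted from lists and are given by their role. Each count is to be read against all genes tested, of which 70.1% were called in Huh7 (32.7% higher, 37.4% lower) and 20% in HepG2 (11.6% higher, 8.43% lower), or 63.6% and 34.4% with the GC trend removed. Of 12 other PI3K subunits, 5 of 8 tested were called in Huh7 (1 higher, 4 lower, median log2 fold change -0.41) and 1 of 7 in HepG2, PIK3R3 (0.59, adjusted p = 0.0414, limma). With the GC trend removed 1 was called higher and 2 lower in Huh7, with a median of -0.07, and 1 was called in HepG2, higher. Of these in Huh7, only PIK3C2A was also called from the deposited values. PIK3C2G (from 0.09 to 0.95) and PIK3C2B (from 0.26 to -0.21) became called there, and are named after their values were seen. PIK3CB, the p110beta subunit, fell in Huh7 from 16.1 ± 1.22 to 9.32 ± 2.05 FPKM (SD, n = 3, -0.74, adjusted p = 0.00217, limma), a call lost with the GC trend removed (-0.01, adjusted p = 0.927, limma), and the class II kinase PIK3C2A fell there (-1.41, or -0.56 with the trend removed). PIK3R2, at 0.0310 to 0.0885 FPKM on average, was too low to be tested. Of 6 adaptors and inhibitors, 5 of 5 tested were called in Huh7 (2 higher, 3 lower, GAB1 with -1.41, or -0.79 with the trend removed) and 2 of 3 in HepG2, both lower. IRS2, counted as lower in Huh7, was under 1 FPKM in every resistant sample there and was tested only through the parental samples. Removal of the trend left 3 calls in Huh7 and 2 in HepG2, all lower. IRS1, which couples the insulin receptor to PI3K, fell in HepG2 from 23.8 ± 3.18 to 12.2 ± 0.585 FPKM (SD, n = 3, -0.90, adjusted p = 0.00476, limma), as did GRB10 (-0.94), while small rises of IRS1 (0.30) and GRB10 (0.29) in Huh7 were lost with the trend removed (0.05 and -0.02).

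Of 5 other AKT kinases and activators, 1 of 4 tested was called in Huh7, lower, and 2 of 4 in HepG2, in opposite directions. After removal of the GC trend 2 were called in Huh7, both higher, and 2 in HepG2, again in opposite directions. SGK3, related to AKT, turned in Huh7 from -0.57 to 0.20, called both times, and SGK1 became called (from 0.19 to 0.48), and both are named after their values were seen. PDPK1, which phosphorylates AKT, fell in HepG2 from 6.66 ± 0.962 to 4.09 ± 0.203 FPKM (SD, n = 3, log2 fold change -0.58, adjusted p = 0.0272, limma) with a value of 0.16 in Huh7 (adjusted p = 0.289, limma, and -0.30 with the trend removed, not called), and SGK2, a related kinase, rose in HepG2 (1.02). Of 9 phosphatases that oppose the pathway, 6 of 8 were called in Huh7 (2 higher, 4 lower, median -0.29) and 1 of 8 in HepG2, higher. INPP5D, counted as higher in Huh7, was under 1 FPKM in every parental sample there and was tested only through the resistant samples. After removal of the trend 4 were called in Huh7, all lower (median -0.10), and in HepG2 2 were higher and 3 lower.

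Among 9 other subunits of the mTOR complexes, 3 of 8 tested were called in Huh7, all higher (median 0.33), and 2 of 8 in HepG2, in opposite directions. Without the GC trend 1 was higher and 2 lower in Huh7 (median 0.03), and 1 was higher and 1 lower in HepG2. The 2 lower ones were MAPKAP1 (from -0.09 to -0.33) and MLST8 (from 0.04 to -0.44), which were named after their values were seen. DEPTOR, an inhibitor of mTOR in both complexes, measured 1.08, 1.13 and 1.17 FPKM in resistant and 10.2, 7.73 and 4.22 FPKM in parental HepG2 cells, a fall of -1.91 (adjusted p = 0.00239, limma). In Huh7 its value was 0.34 (adjusted p = 0.0988, limma), and the interaction was called (2.25, adjusted p = 0.000259, limma). AKT1S1, the complex 1 inhibitor PRAS40, rose in Huh7 from 12.2 ± 2.16 to 26.5 ± 2.14 FPKM (SD, n = 3, 1.07, adjusted p = 0.000245, limma), or by 0.58 with the trend removed. Of 24 genes of the TSC complex, RHEB and amino acid sensing, 13 of 22 tested were called in Huh7 (7 higher, 6 lower, TSC1 with -0.39, FNIP1 with -1.28, or -0.55 with the trend removed, and FNIP2 with -1.83). Without the trend 5 were higher and 6 lower in Huh7, and 3 were called in HepG2, all higher. In HepG2, from the deposited values, 0 of 21 were called with limma, with 3 at an unadjusted p under 0.05 and 2 called by limma-voom. TSC2 was not called in either line (0.09 and 0.20), but was called lower in Huh7 with the trend removed (-0.45, adjusted p = 0.00104, limma), and RHEB, at 0.827 to 1.94 FPKM on average, was tested in Huh7 only (-0.18, adjusted p = 0.186, limma).

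Of 12 targets of mTOR complex 1 or AKT kinases, 10 were called in Huh7 (6 higher, 4 lower, median 0.39) and 2 in HepG2, both lower (median 0.03). Without the GC trend 6 were higher and 4 lower in Huh7, but these were not all the same genes, and 3 were called in HepG2, all lower. EIF4E turned in Huh7 from -0.47 to 0.24, called both times. EIF4EBP2 (0.60) and ULK1 (-0.33) became called there, and ATG13 lost its call (from 0.55 to 0.21). The last 4 genes are named after their values were seen. EIF4EBP1, a repressor of translation that complex 1 inactivates, rose in Huh7 (0.95, adjusted p = 0.00663, lost with the GC trend removed at 0.46, adjusted p = 0.0586, limma) and fell in HepG2 (-0.96, adjusted p = 0.0102, limma). LPIN1, a phosphatidate phosphatase, fell in both lines (-0.33 and -0.61), and GSK3B, a kinase that AKT inhibits, fell in Huh7 (-1.03, or -0.62 with the trend removed). Of 16 FoxO regulators and other FoxO factors, 11 of 15 tested were called in Huh7 (6 higher, 5 lower, median 0.08) and 1 of 14 in HepG2. Without the trend 8 were higher and 2 lower in Huh7, and 2 higher and 2 lower in HepG2. XPO1 turned in Huh7 from -0.73 to 0.16, called both times, and is named after its values were seen. FOXO4 rose in Huh7 from 1.47 ± 0.189 to 2.31 ± 0.211 FPKM (SD, n = 3, 0.43, adjusted p = 0.00893, limma), a call lost with the trend removed (-0.11, adjusted p = 0.369, limma), and its value in HepG2 was -0.20. SKP2, a ubiquitin ligase subunit that targets FOXO1, rose in HepG2 from 26.8 ± 1.33 to 51.7 ± 5.49 FPKM (SD, n = 3, 0.92, adjusted p = 0.00364, limma) and fell in Huh7 (-0.38, adjusted p = 0.0338, limma, and -0.19 with the trend removed, adjusted p = 0.0936, limma). Of the 14-3-3 proteins, which hold FoxO factors in the cytoplasm, SFN (2.77) and YWHAE (1.07) rose and YWHAG fell (-1.25) in Huh7. Other listed 14-3-3 genes were also called higher there, among them YWHAH (0.77), which is named after its value was seen. YWHAG alone was called lower. It rested on low, scattered values, at 0.267, 0.512 and 1.88 FPKM in resistant and 2.66 to 3.98 FPKM in parental Huh7 cells.

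Of the listed FoxO target genes, 11 of 19 tested fell in HepG2, beside 8.43% of all genes, and those in Huh7 moved both ways. Of 24 listed, 1 was higher in HepG2, and the median log2 fold change there was -0.76 beside 0.12 over all genes, while 10 were lower and 7 higher of 20 tested in Huh7, with a median of -0.34 beside -0.04. With the GC trend removed the counts were 11 lower and 2 higher in HepG2 and 10 lower and 4 higher in Huh7. The HepG2 count was 8 of 18 lower without HepG2 parental replicate 1 or without HepG2 parental replicate 2, 9 of 19 without HepG2 resistant replicate 3, and 10 in each of the other 3 fits that left out a sample. Among the genes counted as lower, GABARAPL1 in HepG2 and IRS2 in Huh7 were under 1 FPKM in every resistant sample. These 2 were tested only through the parental samples. The list was written with earlier results of these data known, and many of its genes answer to other regulators too.

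TXNIP, an inhibitor of thioredoxin that is also induced by glucose and whose promoter holds the motif, showed the widest split. It measured 14.6, 18.8 and 15.6 FPKM in resistant and 2.51, 2.88 and 2.27 FPKM in parental Huh7 cells, a rise of 2.28 on the log2 scale (adjusted p = 7.56e-06, limma). In HepG2 it measured 40.7, 36.2 and 41.8 FPKM in resistant and 180.7, 179.7 and 130.8 FPKM in parental cells, a log2 fold change of -2.01 (adjusted p = 0.000388, limma). TRIB1, CITED2, PINK1 and GABARAPL1 also rose in Huh7 (1.03, 0.63, 0.61 and 0.71) and fell in HepG2 (-1.60, -1.68, -0.76 and -1.58), and all 5 interactions were called, from 1.37 (PINK1) to 4.29 (TXNIP). With the trend removed, the Huh7 rise of PINK1 was lost (0.16, adjusted p = 0.265, limma), and those of CITED2 and GABARAPL1 were 0.40 and 0.45.

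SOD2, KLF6, INSR and CCNG2 fell in both lines. SOD2, the mitochondrial superoxide dismutase, measured 4.88, 3.99 and 4.49 FPKM in resistant and 34.7, 25.6 and 24.5 FPKM in parental HepG2 cells (log2 fold change -2.41, adjusted p = 0.000173, limma), and it fell in Huh7 (-0.87, or -0.55 with the trend removed). The insulin receptor INSR fell from 26.9 ± 3.58 to 12.8 ± 0.539 FPKM in HepG2 and from 12.5 ± 1.58 to 8.51 ± 0.463 FPKM in Huh7 (SD, n = 3, log2 fold changes -1.01 and -0.50, the latter -0.82 with the trend removed). KLF6, a zinc finger factor, had -1.24 in HepG2 and -0.44 in Huh7, and CCNG2, the cell cycle inhibitor cyclin G2, -0.70 and -1.16, the latter -0.72 with the trend removed. GADD45A (-1.30), a stress response gene, fell in HepG2, and its Huh7 value was -0.20 (adjusted p = 0.274, limma) or -0.73 with the trend removed (adjusted p = 0.00253, limma). SESN3, an inhibitor of mTOR complex 1 signalling, fell in Huh7 (-1.26, or -0.56 with the trend removed). Catalase, CAT, went against the others in HepG2, where it rose (0.67, adjusted p = 0.0145, limma), and fell in Huh7 (-0.94). BCL2L11, whose promoter holds the motif, fell slightly in Huh7 (-0.35, adjusted p = 0.0411, limma) and had 0.10 in HepG2 (adjusted p = 0.618, limma), and it is named here for its promoter. The fall of CDKN1B in HepG2 (-0.93, adjusted p = 0.00297, limma), which encodes the cell cycle inhibitor p27, was singled out after its value was seen. Of the pathway genes named here, some did not keep their call each time a single sample was dropped, in 6 fits per line. These were PIK3R3, PDPK1, LPIN1, CCNG2, PINK1 and CAT in HepG2 (lost by CAT without HepG2 resistant replicate 3, PIK3R3 in 5 fits, the others in 4) and LPIN1, GRB10, BCL2L11, SKP2 and IRS1 in Huh7 (LPIN1 and GRB10 in 5 fits, BCL2L11 in 4, SKP2 and IRS1 in 3), none with a change of sign. EIF4E in Huh7 also lost its call in 1 fit, without a change of sign.

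**Figure D5:**
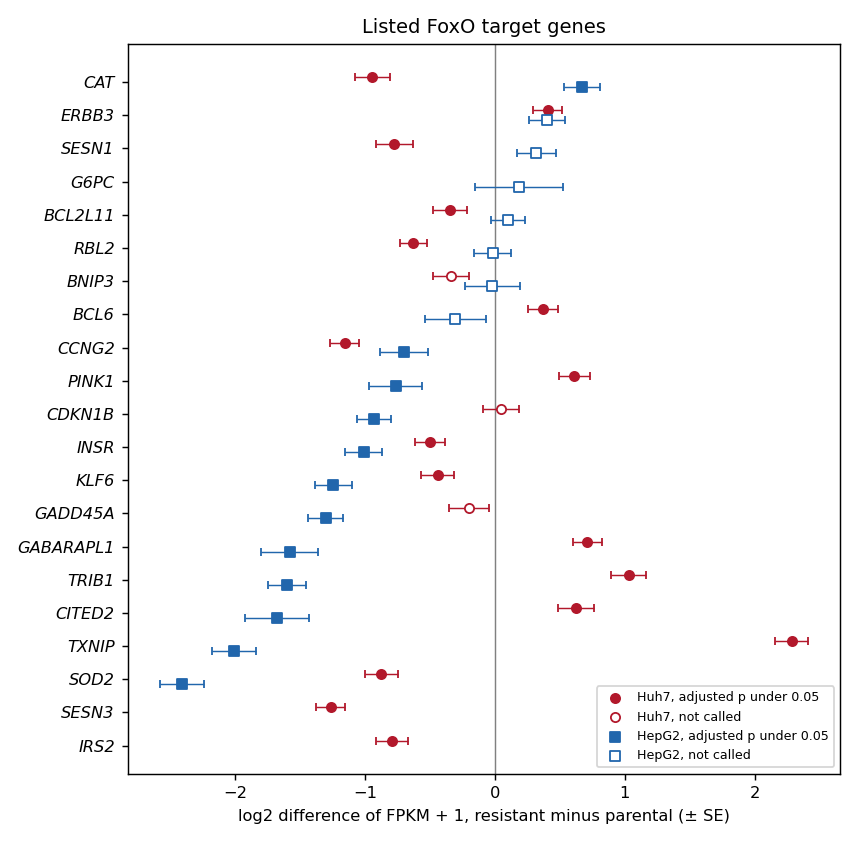
Log2 difference of FPKM + 1, resistant minus parental (horizontal axis, bars ± SE), for the listed FoxO target genes that were tested in Huh7 (circles) or HepG2 (squares), with called genes filled. In HepG2 11 genes lie called below 0 and CAT alone is called above it, whereas in Huh7 TXNIP (2.28) and TRIB1 (1.03) lead the 7 genes called above 0.

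There are 11 NONCODE genes with a mean of at least 1 FPKM in a group that lie over the 8 genes, 8 of them outside their exons. In Huh7, 7 of the 11 were lower in every resistant than in every parental sample and the other 4 overlapped, beside 56.8% lower and 10.6% higher among all 15041 NONCODE genes at this level. In HepG2, 3 were lower and 2 higher, beside 6.04% and 24%. The 3 lower in HepG2 were the 3 within FOXO3, and they were also lower in Huh7. One on the opposite strand (chromosome 6, 108618000-108618285) measured 1.47 to 3.44 FPKM in resistant and 8.57 to 15.8 FPKM in parental Huh7 cells, and 2.68 to 5.99 against 7.97 to 11.4 FPKM in HepG2 cells. None of the 3 touches an exon of FOXO3, and reads from introns of the FOXO3 transcript cannot be told apart from separate transcripts here, since the strand setting is not given in the sources used here.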

How the data were processed

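RNA-seq was performed on 12 samples in 4 groups of 3. The deposited tables hold FPKM values made by the authors by steps not given in the sources used here: the submitters' processing notes name bcl2fastq and GRCh38, and aligner, counter, strand setting and whether single reads or pairs were counted (RPKM or FPKM) are not given. The labels name an RNeasy kit and the study's methods TRIzol for RNA extraction. Multiplied by the joint exon length in GENCODE release 29, 99.5% to 99.6% of the values of 6896 single-exon genes up to 2000 reads lay within 0.05 of a whole number of reads, which gave the depth, and counting error covers reads only.

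Genes with at least 1 FPKM in 3 or more samples were fitted as log2(FPKM + 1) with limma 3.58.1 in R 4.3.3 (trend on mean level, two-sided, Benjamini-Hochberg adjustment, called under 0.05), per line, and over all 12 samples for interactions and differences between lines. Fold changes are on the log2(FPKM + 1) scale and understate those of low genes. The fit was tested on simulated counts that had the same dispersion for every gene and no GC trend. That test therefore does not cover the GC trend seen in Huh7. The 71462 NONCODE genes were not fitted, and 27234 of 27249 Ensembl identifiers matched GENCODE release 29. GC content was pooled over all GENCODE transcripts of a gene by length, so that exons shared by transcripts count more than once. The GC trend was removed per library with lowess (span 0.3). Ratios were tested with exact two-sided permutation tests, whose smallest p is 0.1 for 3 against 3 and 0.005 over both lines. Python 3.11.15 with pandas 2.3.3 and numpy 2.4.6 did the rest. Replicates of a group had Pearson's r of 0.981 to 0.991 across genes.

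Alternatives were a pseudocount of 0.1, no filter on low values, limma without the trend, limma-voom on reads calculated back, all 12 samples in 1 fit, median-ratio scaling, GC trend removal, a block on replicate number, and leaving out each sample. Scaling to principal transcripts was chosen after seeing the data. Named genes were the 8 genes, PDPK1, RPTOR, TSC1, TSC2, RHEB, DEPTOR, PIK3CB, PIK3R2, PIK3R3 and FOXO4, in each other pathway list the genes called in both lines or in 1 line with a log2 fold change beyond 1, and for each of the 8 the 2 closest in pattern. BCL2L11 is an exception, named for its promoter. CDKN1B, SGK1, SGK3, MAPKAP1, MLST8, YWHAH, PIK3C2B, PIK3C2G, EIF4E, EIF4EBP2, ULK1, ATG13 and XPO1 are exceptions named after their values were seen. INPP5D and IRS2 are named for the filter on low values. Some genes that the rule names are not reported here. Members and lists were chosen with earlier results of these data known.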

Additional observations from a re-analysis of the deposited data

Results flagged for a closer look

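The change from parental to resistant cells differed between the lines for 5 of the 8 genes, beside 56.3% of all 13800 genes tested, so that the share is near its background. The test was that of the interaction (limma over all 12 samples, Huh7 change minus HepG2 change). The values were -0.95 for PIK3CA, -1.63 for PIK3R1 and -1.05 for RICTOR, which fell in Huh7 and were not called in HepG2, and 0.45 for FOXO1 and 1.23 for FOXO3, which fell in both lines, more so in HepG2. With the GC trend of each library removed they were 0.16, -0.79, -0.02, 0.56 and 1.17, so that those of PIK3CA and RICTOR were no longer called.

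Among NONCODE genes, which no test above used, 2 on the opposite strand over the 8 genes were higher in every resistant than in every parental HepG2 sample. NONHSAG016066.3 at the end of AKT1 had a mean of 1.78 FPKM in resistant against 0.78 FPKM in parental cells, and NONHSAG000361.2 over MTOR 2.49 against 1.48 FPKM. Both overlapped between the groups in Huh7. These differences were not tested, and both genes touch exons of the gene they lie over.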

How the results depend on the processing

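Of 120 values of the 8 genes under alternatives, 111 in Huh7 were counted as unchanged, 5 as having lost their call and 4 as turned. In HepG2 103 were counted as unchanged and 17 as having gained a call, and in the interaction 149 of 160 as unchanged. Some values near 0 that changed sign without a call were counted as unchanged. With the GC trend removed these were MTOR in HepG2 (from 0.01 to -0.04) and AKT2 between parental lines (from -0.09 to 0.11). Another was AKT1 in Huh7, at -0.10 to 0.13 when 1 sample was left out. With the GC trend removed, values turned for AKT1 (-0.54) and MTOR (-0.0097) in Huh7, for the interactions of PIK3CA (0.16) and AKT2 (-0.014), for PIK3CA between parental lines (-0.063), and for PIK3CA (0.099) and PIK3R1 (0.035) between resistant lines, with the same values under a replicate block with the trend removed. Genes called in HepG2 numbered 2357, against 3888 with all 12 samples in 1 fit (4 of the 8 genes, against 2), 4047 with the trend removed (6), 3418 with a replicate block (5) and 4075 with block and trend removal (6). In Huh7 the replicate block gave 8609 against 8797, with 6 of the 8 genes in both. Samples share only a number: deviations of same-numbered samples correlated at -0.20 to 0.07 in Huh7 and -0.01 to 0.39 in HepG2.

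Leaving out 1 sample gave 840 (without HepG2 resistant replicate 3) to 2224 called genes in HepG2, with 1231 without HepG2 parental replicate 1 and 1466 without HepG2 resistant replicate 2, and 2 to 5 of the 8 genes. Over both lines, the difference in log2 ratio then ran from 0.41 to 0.48 for AKT2 to AKT1 (0.43 with all samples, p = 0.055, exact permutation test), from -0.48 to -0.31 for FOXO3 to FOXO1 (-0.39, p = 0.1, exact permutation test) and from 0.34 to 0.54 for PIK3R1 to PIK3CA (0.46, p = 0.035, exact permutation test). With the GC trend removed the last 2 were -0.47 (p = 0.03, exact permutation test) and 0.34 (p = 0.165, exact permutation test). The cause of these shifts was not tested. With 3 samples a group, a gene without a call may still differ by any amount inside its interval.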
